A study of Mus musculus with 4 samples.

Results

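The endothelin genes were examined in sorted palatal mesenchyme. They are the 3 ligand genes *Edn1*, *Edn2* and *Edn3*, the 2 receptor genes *Ednra* and *Ednrb*, and the 2 converting enzyme genes *Ece1* and *Ece2*. The genes were chosen by symbol from what they encode, with earlier results of these data known. All 7 were found among the 22096 symbols of the expression tables, of which 21352 were kept for analysis. Expression had been profiled by RNA-seq in 4 mouse embryos at E13.5 on a mixed genetic background, and every embryo carried 1 *Osr2*RFP allele. The 2 mutant embryos were *Foxf2*-/-*Osr2*RFP/+. The 2 controls were littermates, of which 1 was *Osr2*RFP/+ with an intact *Foxf2* gene (*Foxf2*+/+) and 1 was *Foxf2*+/-*Osr2*RFP/+, called the wild type and the heterozygote here, so each control genotype had a single embryo. RFP is a red fluorescent protein made from the *Osr2* locus, the RFP-positive cells of the palatal shelves were sorted by flow cytometry, and the *Foxf2* null allele was constitutive, so that the mutants lacked *Foxf2* in all tissues. All levels are FPKM, in which the fragments of a gene are divided by its transcript length and by the size of the library, so that genes of different length can be compared.

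Endothelins are short secreted peptides that are cut from longer precursors. A furin-like protease first releases a big endothelin, and an endothelin converting enzyme then cuts it to the active peptide. Ednra binds endothelin 1 and endothelin 2 more tightly than endothelin 3, while Ednrb binds all of them alike. Both are G protein-coupled receptors. In the cranial neural crest, the source of the palatal mesenchyme, Ednra receives endothelin 1 from the arch epithelium and sets lower jaw identity, and Ednrb with endothelin 3 is needed by neural crest cells that form pigment cells and enteric neurons.

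The active peptides of the 3 ligands are encoded by stretches of 63 bases, 21 codons each. They are shown because the ligand genes differed sharply in level, as described below, while their active peptides are alike. In the mouse genome (mm9) each stretch lies in coding sequence of exon 2 of 5 on the plus strand, at chr13:42399018-42399080 for *Edn1*, at chr4:119834556-119834618 for *Edn2* and at chr2:174587250-174587312 for *Edn3*. Capitals mark the 4 cysteine codons.
Edn1: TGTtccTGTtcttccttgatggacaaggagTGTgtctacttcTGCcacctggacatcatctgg
Edn2: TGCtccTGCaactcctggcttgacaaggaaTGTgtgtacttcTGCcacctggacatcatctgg
Edn3: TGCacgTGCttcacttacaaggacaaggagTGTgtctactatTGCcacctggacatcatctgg
The *Edn1* and *Edn2* stretches differed at 10 of 63 bases and encode 18 of 21 identical residues. *Edn3* differed from *Edn1* at 13 bases and from *Edn2* at 15, with 15 of 21 residues identical in either comparison. The 4 cysteines were at the same positions in all 3 peptides, and the last 7 codons, 21 bases, were the same in all 3 genes.

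The genotype and the sorted cells were checked first. *Foxf2* was at 85.4 FPKM in the wild type, 45.1 in the heterozygote, and 1.41 and 2.28 in the mutants (limma, adjusted p = 0.0053). The 8 palatal mesenchyme markers, *Osr2* among them, were above 1 FPKM in every embryo and summed to between 941 and 1186 FPKM. The 8 endothelial markers summed to between 0.48 and 1.87 FPKM, with *Cldn5* at 0 in every embryo. The 6 skeletal muscle markers summed to between 0.76 and 1.24 FPKM with *Myog* at 0 in every embryo, and the 8 epithelial markers to between 7.64 and 9.55 FPKM. The 10 pericyte and smooth muscle markers summed to between 58.6 and 65.0 FPKM, with *Pdgfrb* alone at between 36.4 and 40.6 FPKM. Of the 10, 6 were above 1 FPKM in every embryo and 2 were below 1 FPKM in every embryo. Blood markers, mostly globin genes, differed most between the embryos, with sums of 297 FPKM in the wild type, 1837 in the heterozygote, and 1598 and 4375 in the mutants. Their part in the results below was not tested. In these bulk samples, fewer cells of a type and less RNA per cell cannot be told apart.

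Of the ligands, *Edn3* was the one with a clear signal. *Edn1*, which encodes the ligand that patterns the lower jaw, was listed at 0 FPKM in both controls and in 1 mutant, and at 0.050 FPKM in the other mutant. *Edn1* lies on chromosome 13 (42396639 to 42403358), 10.7 Mb from *Foxf2*. *Edn2*, on chromosome 4 (119834029 to 119839965), was listed at 0.21 FPKM in the wild type, 0 in the heterozygote, and 0 and 0.256 in the mutants. Both genes were thus at or near 0 in all 4 embryos, no fold change is given for them, and they were below the filter for testing, a mean of at least 1 FPKM over the 4 embryos. The highest value of either gene, 0.256 FPKM, was below the lowest *Edn3* value.

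*Edn3*, on chromosome 2 (174586274 to 174609543), was at 6.23 FPKM in the wild type, 5.11 in the heterozygote, and 3.50 and 4.98 in the mutants. It held between 95.1 and 100% of the ligand FPKM of each embryo. Both mutants were below both controls, but the higher of them was close to the heterozygote. The control mean was 5.67 ± 0.79 FPKM (SD, n = 2) and the mutant mean 4.24 ± 1.04 (SD, n = 2). The difference, *Foxf2*-/- minus control, was -0.42 on the log2(FPKM + 0.1) scale (standard error 0.19, 95% interval -0.86 to 0.01), and did not pass in limma (adjusted p = 0.393). Against the wild type alone the log2 difference was -0.56, and against the heterozygote alone it was -0.28. The log2 difference between the mutants, 0.50, was larger than that between the group means. Without the first mutant the log2 difference of *Edn3* was -0.18 and without the second it was -0.67.

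**Figure D1:**
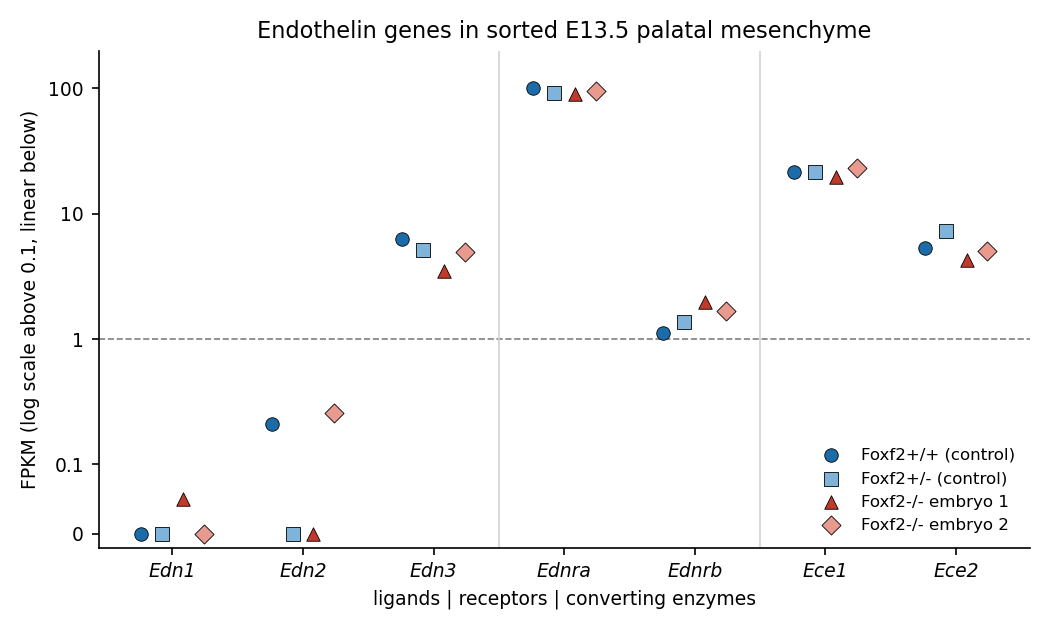
FPKM of the 7 endothelin genes in each of the 4 embryos, on an axis that is logarithmic above 0.1 and linear below; the dashed line marks 1 FPKM, the mean required for testing. *Ednra* sits between 90.0 and 101 FPKM in every embryo, while *Edn1* and *Edn2* sit at or below 0.256.

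*Ednra* was by far the most abundant of the endothelin genes. It lies on the minus strand of chromosome 8 (80186928 to 80248351) and was at 101 FPKM in the wild type, 91.8 in the heterozygote, and 90.0 and 95.7 in the mutants. Among the 21352 symbols kept it ranked between 305 and 329 from the top in the 4 embryos. The groups overlapped, since the higher *Foxf2*-/- value lay between the controls. The control mean was 96.5 ± 6.7 FPKM (SD, n = 2) and the mutant mean 92.9 ± 4.1 (SD, n = 2). The log2 difference of -0.05 did not pass in limma (adjusted p = 0.837), and it was 0.03 when the embryos were rescaled by the median of ratios. Its 95% interval, -0.27 to 0.16, corresponds to between 0.83 and 1.12 times the control level, so it does not reach a change of 1.5-fold in either direction. The strand of the reads was not stated in the sources used here. In the GENCODE annotation of mm9, exons of *Ednra* share 91 bases with exons of *4933431K23Rik*, a noncoding RNA gene on the opposite strand that was not analysed here, and reads of these bases could not be told apart. Genes on the opposite strand within the spans of *Ece1* and *Ece2* shared 0 exon bases with them.

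*Ednrb*, the receptor that binds all of the endothelins, was at a low level and was higher in the mutants, though not past the test. It lies on the minus strand of chromosome 14 (104213842 to 104243390) and was at 1.11 FPKM in the wild type, 1.37 in the heterozygote, and 1.99 and 1.67 in the mutants. The values followed the number of *Foxf2* null alleles, with both mutants above both controls and the heterozygote between. The control mean was 1.24 ± 0.18 FPKM (SD, n = 2) and the mutant mean 1.83 ± 0.23 (SD, n = 2). The log2 difference was 0.53 (standard error 0.21, 95% interval 0.03 to 1.02), with an unadjusted p of 0.040 and an adjusted p of 0.359 from limma. The log2 difference was 0.67 from the wild type, which is more than 1.5-fold, and 0.39 from the heterozygote, which is less.

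Markers of cells known to make *Ednrb* were low in all embryos, and their sums were higher in both mutants than in both controls. Of the 10 Schwann cell and melanocyte lineage markers measured, 8 were below 1 FPKM in every embryo and *Dct* was at 0 in every embryo. Their sum was 3.83 FPKM in the wild type, 4.17 in the heterozygote, and 4.76 and 4.50 in the mutants. *Sox10*, which defines that lineage, was at 0.14 and 0.16 FPKM in the control pair, against 0.47 and 0.35 in the mutant pair. The endothelial sum was 0.48 and 0.94 FPKM in the control pair, against 1.02 and 1.87 in the mutant pair. The part of these cells in the *Ednrb* values was not tested.

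*Ednra* made up between 97.8 and 98.9% of the receptor FPKM of each embryo. The ratio of *Ednra* to *Ednrb* was 91.2 in the wild type, 67.0 in the heterozygote, and 45.3 and 57.4 in the mutants. The *Foxf2*-/- ratios were below both control ratios, while *Ednra* itself overlapped between the groups. The ratio of *Ednra* to *Edn3* was 16.3 and 18.0 in the control pair, against 25.7 and 19.2 in the mutant pair. Since *Ednra* varied little, these ratios mostly restate the *Ednrb* and *Edn3* values above and are not separate results.

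*Ednrb* had 2 transcript entries, and the estimates split its signal differently in each embryo. The entry NM_001136061, which ends at 104243390, held 1.11 FPKM in the wild type, 0.81 in the heterozygote, and 0.98 and 1.07 in the mutants. The entry NM_007904, which ends at 104242913 and so begins further downstream on the minus strand, held 0.00024 FPKM in the wild type, 0.56 in the heterozygote, and 1.0 and 0.60 in the mutants. The wild type stood apart, with nearly all of its *Ednrb* signal in the first entry. The first entry overlapped between the groups. The entry NM_007904 was higher in both mutants than in both controls, but the lower mutant, at 0.60 FPKM, was close to the heterozygote, at 0.56. Between that mutant and the heterozygote the first entry differed more, at 1.07 against 0.81 FPKM. How reads are shared between entries that overlap along nearly their whole length is an estimate, and the second entry was not tested on its own.

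*Ece1*, the converting enzyme that makes active endothelin at the cell surface, was the second most abundant of these genes. It lies on the plus strand of chromosome 4 (137418152 to 137521144) and was at 21.51 FPKM in the wild type, 21.53 in the heterozygote, and 19.6 and 23.2 in the mutants. The mutants lay on either side of the controls. The control mean was 21.5 ± 0.011 FPKM (SD, n = 2) and the mutant mean 21.4 ± 2.6 (SD, n = 2). The log2 difference was -0.01 (limma, adjusted p = 0.970) and became 0.07 after rescaling by the median of ratios. The 95% interval, -0.26 to 0.23, corresponds to between 0.83 and 1.18 times the control level.

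*Ece2*, a relative of *Ece1* that works at acidic pH inside the cell, turned out to be listed together with another gene. Under the symbol *Ece2* the tables held 5 entries on the plus strand of chromosome 16 between 20611674 and 20645988. Their sum was 5.33 FPKM in the wild type, 7.30 in the heterozygote, and 4.25 and 5.06 in the mutants. Both mutants were below both controls, and the heterozygote was the highest. The log2 difference of the sum was -0.42 (95% interval -0.82 to -0.02, unadjusted p = 0.041), with an adjusted p of 0.361 from limma. Without the heterozygote the log2 difference of the sum was -0.20, without the wild type it was -0.64, and without the first mutant it was -0.30.

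Present RefSeq gene records (GRCm38.p6) assign these 5 entries to 3 genes. The entry NM_025462, of 984 bases between 20611674 and 20618942, now belongs to *Eef1akmt4*, which encodes a lysine methyltransferase of the elongation factor eEF1A. It held between 70.6 and 81.3% of the FPKM listed as *Ece2* in each embryo. The entries NM_139293 and NM_177942, both between 20629924 and 20645988, belong to *Ece2*, and the entries NM_177940 and NM_177941, which span both genes, to their read-through transcript.

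The lower sum in the mutants lay in the *Eef1akmt4* entry and not in the *Ece2* entries. NM_025462 was at 4.18 FPKM in the wild type, 5.94 in the heterozygote, and 3.24 and 3.57 in the mutants. Its log2 difference of -0.54 (95% interval -0.96 to -0.12) did not pass in limma (adjusted p = 0.316). The 2 *Ece2* entries together were at 0.96 FPKM in the wild type, 1.36 in the heterozygote, and 1.02 and 1.49 in the mutants, so that the groups overlapped. Taken singly they differed. NM_139293 was at 0.32 and 0.27 FPKM in the control pair, against 1.01 and 0.84 in the mutant pair. NM_177942 was at 0.64 and 1.09 FPKM in the control pair, against 0.0015 and 0.65 in the mutant pair. How reads are shared between these overlapping entries is an estimate, and neither was tested on its own. The log2 difference of the sum of these 2 entries was 0.09 (95% interval -0.56 to 0.75, adjusted p = 0.916 from limma). The read-through entries were at 0.19 FPKM in the wild type and near 0 in the other 3. This split was made after the values had been seen.

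**Figure D2:**
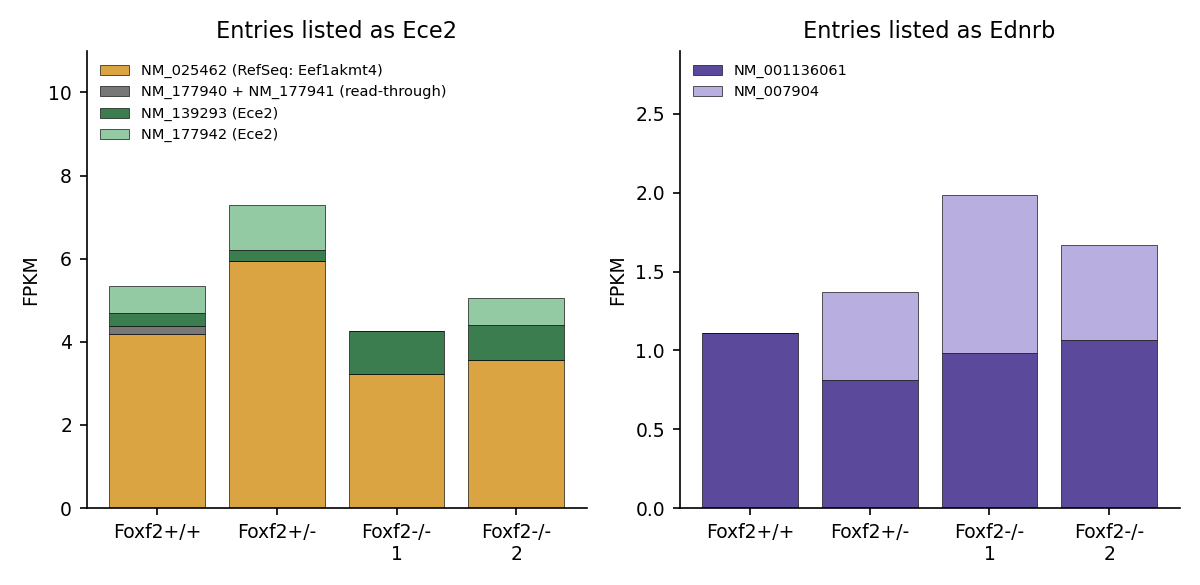
FPKM of the transcript entries listed as *Ece2* (left) and *Ednrb* (right), stacked for each embryo. NM_025462, now *Eef1akmt4*, makes up most of each bar on the left, and NM_007904 is nearly missing from the *Foxf2*+/+ bar on the right.

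The order of the levels was *Ednra*, *Ece1*, then *Edn3* and the *Ece2* sum, then *Ednrb*, and last *Edn2* and *Edn1*. *Ednra* was between 4.13 and 4.71 times as high as *Ece1* within each embryo, and the 2 genes did not overlap over the 4 embryos. *Edn3* and the *Ece2* sum could not be ordered, since *Edn3* was the higher in the wild type and the lower in the other 3. The lowest *Edn3* value, 3.50 FPKM, was above the highest *Ednrb* value, 1.99 FPKM. The *Ece2* entries without NM_025462, from 0.96 to 1.49 FPKM, overlapped the range of *Ednrb*. *Edn1* and *Edn2* were both listed at 0 in the heterozygote and could not be ordered.

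Against the whole transcriptome, the endothelin genes gave no change between *Foxf2*-/- and control embryos that passed the test. A gene was called when the limma p-value, adjusted over all 11154 genes tested by the Benjamini-Hochberg method, was under 0.05 and the change was more than 1.5-fold. Of the 7 endothelin genes 5 passed the filter and 0 were called, where 0.0628% of all genes tested were. An unadjusted limma p under 0.05 was found for 2 of the 5, *Ednrb* and the *Ece2* sum, and for 13% of all genes tested. The *Ece2* sum is mostly the *Eef1akmt4* entry, and the RefSeq *Ece2* entries alone had an unadjusted limma p of 0.746. None of the 5 changed by more than 1.5-fold against both controls, which 1.4% of all genes did. With 2 embryos in each group, the smallest p that an exact permutation test can give is 0.333, and it was 0.333 for *Edn3*, *Ednrb* and the *Ece2* sum.

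Groups that did not overlap were common in these data. Of the 5 endothelin genes tested, 3 had groups without overlap, where 45.7% of all genes tested did. *Ednrb* was higher in both mutants than in both controls, as were 9.89% of all genes tested, and *Edn3* and the *Ece2* sum were lower, as were 35.8%. The *Ece2* sum counted here is mostly the *Eef1akmt4* entry, and with the RefSeq *Ece2* entries alone the groups overlapped. The median log2 difference over all genes tested was -0.08, and after rescaling by the median of ratios the shares of all genes became 21% higher and 21.6% lower. *Ednrb* remained without overlap above the controls and *Edn3* and the *Ece2* sum below them after that rescaling. The heterozygote lay between the wild type and both mutants for 2 of the 5, where it did for 28.7% of all genes tested. These were *Ednrb*, in the higher direction as for 5.05% of all genes, and *Edn3*, in the lower direction as for 23.7%. With single embryos for the control genotypes, such an order has no replicate check.

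**Figure D3:**
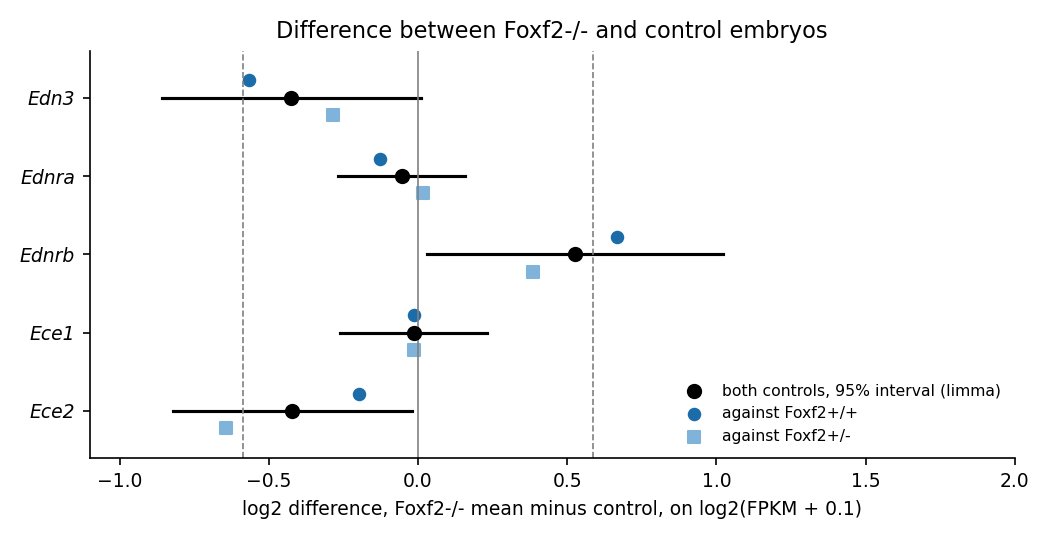
Difference between *Foxf2*-/- and control embryos on the log2(FPKM + 0.1) scale for the 5 endothelin genes tested. Black points with bars are the limma estimate against both controls with its 95% interval, colored points the difference from each control, and dashed lines mark 1.5-fold. The intervals of *Ednra* and *Ece1* lie inside the dashed lines, and those of the other 3 genes cross one of them. *Ece2* is the sum of the entries listed under that symbol, mostly the *Eef1akmt4* entry.

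Genes that process or break down endothelins were measured next, from a list of 10. Of these, 6 passed the filter and 0 were called by limma, where 0.0628% of all genes tested were. An unadjusted p under 0.05 was found for 0 of the 6, against 13% of all genes, and the median log2 difference was 0.05, against -0.08 over all genes. *Mme*, the gene for neprilysin, a cell surface protease that degrades endothelins, was the most abundant at 72.1 FPKM in the wild type, 59.8 in the heterozygote, and 61.4 and 66.4 in the mutants. Its groups overlapped and its log2 difference was -0.04. *Ctsa*, which encodes a lysosomal carboxypeptidase, had a control mean of 15.4 ± 0.71 FPKM and a mutant mean of 14.3 ± 0.93 (SD, n = 2 each). The proprotein convertase genes *Pcsk5*, *Pcsk6* and *Pcsk7* had log2 differences of 0.17, 0.10 and 0.13. *Furin*, the other convertase gene of the list, had a log2 difference of -0.003, and was named after its values were seen. The 4 untested genes, *Ecel1*, *Mmel1*, *Kel* and *Cma1*, were below 1 FPKM in every embryo, with *Ecel1* and *Cma1* at 0; they are named after their values were seen.

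The genes of receptor coupling and signaling, from a list of 22, had log2 differences between -0.27 and 0.49. Of the 18 tested, 4 were higher without overlap and 5 lower, where 9.89% and 35.8% of all genes tested were. Limma called 0 of the 18 (0.0628% of all genes), and 1 had an unadjusted p under 0.05 (13% of all genes). The median log2 difference was -0.08, as over all genes tested. *Gnai2*, *Gnai3* and *Gna11*, which encode G protein alpha subunits, were the most abundant. *Gnai2* had a control mean of 87.8 ± 1.9 FPKM and a mutant mean of 83.1 ± 5.1 (SD, n = 2 each), and *Gna11*, whose product activates phospholipase C, had means of 21.8 ± 0.76 and 23.6 ± 3.1. The means of *Gnai3* were 40.9 ± 1.2 and 37.2 ± 0.60 FPKM. *Rgs2*, which encodes a regulator that shortens signaling through the Gq class, had the largest difference, at 10.6 and 9.53 FPKM in the control pair, against 14.2 and 14.1 in the mutant pair. The log2 difference of *Rgs2* was 0.49 (95% interval 0.26 to 0.72), with an adjusted p of 0.177 from limma that ranged from 0.109 to 0.502 over the alternatives. The next largest log2 differences were -0.27 for *Rgs5*, 0.27 for the protein kinase C gene *Prkca* and -0.21 for *Gnai1*.

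Genes that lie downstream of endothelin 1 in the lower jaw arch were the third list, of 10 genes, of which 4 were tested. *Gsc*, a homeobox gene, was at 4.30 FPKM in the wild type, 4.81 in the heterozygote, and 2.32 and 2.33 in the mutants. Both mutants were well below both controls and close to each other. Its log2 difference was -0.94 (standard error 0.13, 95% interval -1.25 to -0.62), lower by more than 1.5-fold against both controls, as were 0.681% of all genes tested, and did not pass in limma (adjusted p = 0.102, from 0.081 to 0.344 over the alternatives). *Dlx5*, a homeobox gene of the lower arch, was at 5.81 and 6.50 FPKM in the control pair, against 8.50 and 8.92 in the mutant pair. Its log2 difference of 0.50 was of opposite sign to that of *Gsc* (limma, adjusted p = 0.195, from 0.140 to 0.720 over the alternatives).

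*Mef2c*, which encodes a transcription factor, and *Cited1*, which encodes a transcriptional coactivator, had log2 differences of 0.31 and 0.25, and neither passed in limma (adjusted p = 0.426 and adjusted p = 0.633). Limma called 0 of the 4 genes tested, against 0.0628% of all genes, and 2 of the 4 had an unadjusted p under 0.05, against 13%. The median log2 difference was 0.28, against -0.08 over all genes tested. The other 6 genes were below 1 FPKM in every embryo, among them *Hand1*, at 0 throughout, and *Hand2*, at 0 in both controls and at 0.080 and 0.035 FPKM in the mutants. Of the rest, *Dlx3* and *Gbx2* were higher in both mutants than in both controls, *Dlx4* was lower, and *Dlx6* overlapped. These names were added after their values were seen. The members of this list thus differed in sign, and no list had a gene that passed the test.

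**Figure D4:**
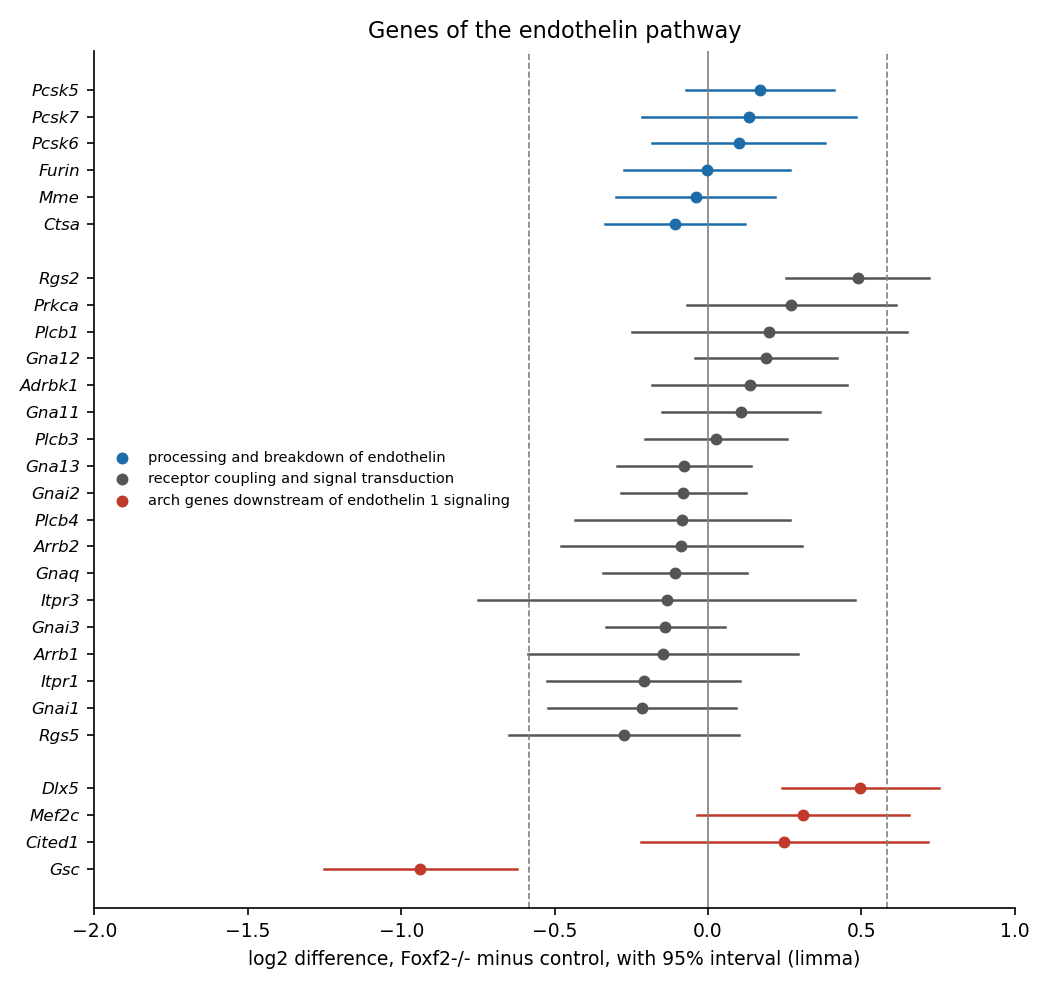
Log2 difference between *Foxf2*-/- and control embryos for the 28 tested genes of the 3 lists, each with its 95% interval from limma; dashed lines mark 1.5-fold. Only the interval of *Gsc* lies wholly beyond a dashed line, and those of *Rgs2* and *Dlx5* lie above 0 and cross one.

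The genes with a pattern most like that of *Edn3* over the 4 embryos were *Zfp692*, *E130303B06Rik* and *Npl*. Likeness was the root mean square difference of the log2 values after each gene was centered on its own mean, and it was 0.015, 0.017 and 0.029. Within 0.05 of *Edn3* there were 21 genes. For *Ednra* the most alike genes were *Tbc1d9b*, *Dhtkd1* and *E430025E21Rik*, with differences of 0.0049, 0.0059 and 0.0060, and 1164 genes lay within 0.05. The flat profile of *Ednra* was thus shared by many genes.

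The promoters of the 7 genes were searched for a forkhead core, since *Foxf2* encodes a forkhead factor. The RefSeq windows (GRCm38.p6), 300 bases each, gave 10 promoters, 4 of them for *Ece1*. The letters GTAAACA on either strand were in 0 of the 10, and in 3.65% of 32851 promoters. The shorter TAAACA, which GTAAACA contains, was in 1 of the 10, that of *Ece2*, and in 13.4% of all promoters. No match says only that these letters are not in this window.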

How the data were processed

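RFP-positive palatal cells of 4 E13.5 embryos were sequenced as separate libraries. The authors mapped single-end reads to the mm9 genome by Tophat, with Bowtie 0.12.7 named in the submitters' processing notes. They deposited 1 table per embryo, with an FPKM and a coverage signal for 28107 RefSeq entries; the program version and options behind the FPKM are not given in the sources used here. Read numbers are unknown, low values did not fall on clear steps, and coverage divided by FPKM put the libraries at up to 1.19 times the depth of the *Foxf2*+/+ one.

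Entries of at least 200 bases were summed by symbol, 10 symbols with a failed estimate were left out, and the 11154 genes with a mean FPKM of at least 1 were tested. limma 3.58.1 (R 4.3.3) with a variance trend was fitted to log2(FPKM + 0.1), *Foxf2*-/- against both controls, with Benjamini-Hochberg adjustment and thresholds of 0.05 and 1.5-fold. The scale understates changes of low genes. The script was tested on simulated data. Python 3.11.15, pandas 2.3.3 and numpy 2.4.6 were used. Named were all 7 endothelin genes and, of each list, called genes, the 4 largest differences and the 3 highest levels, with the 3 genes most like *Edn3* and *Ednra*. Members and lists were chosen with earlier results of these data known. The alternatives varied pseudocount, filter, entries, scaling, model and embryos included. The limma p-values rest on the spread of each gene between these 4 embryos, drawn toward the spread of other genes of like level. The 2 controls differ in genotype.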

Additional observations from a re-analysis of the deposited data

How the results depend on the processing

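No endothelin gene was called by limma under any of the alternatives that gave it a value. *Edn3* kept its direction in all 14 and *Ednrb* in all 12, with adjusted p from 0.259 to 0.875 and from 0.266 to 0.843. *Ednra* and *Ece1* changed sign after rescaling by the median of ratios, to 0.026 and 0.066, and the *Ece2* log2 difference became 0.094 with only the RefSeq *Ece2* entries, an alternative added after seeing the data. *Ednrb* gave no value with an FPKM of at least 5 in 1 embryo, and neither it nor *Ece2* with only the longest entry. As 1 embryo was left out at a time, the log2 difference ran from -0.67 to -0.18 for *Edn3*, -0.13 to 0.016 for *Ednra*, 0.39 to 0.67 for *Ednrb*, -0.14 to 0.11 for *Ece1* and -0.64 to -0.20 for *Ece2*; the lone embryo of a group was then assumed to vary like the other group.

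Over all genes, limma called 7, and 13 with a pseudocount of 1, 27 with entries of all lengths and 20 with a mean for each genotype. It called 0 without a filter, 0 with only the longest entry and 0 without a trend, with 1966, 1152 and 1264 genes at an unadjusted p under 0.05. Leaving out 1 embryo gave 7 to 38, with 38 when the *Foxf2*+/- embryo was left out. The genes past 1.5-fold against both controls, 156, became 67 with a pseudocount of 1, 639 without a filter, 49 with an FPKM of at least 5, 291 with all entries, 331 with the longest entry, 36 at 2-fold, and 213 to 572 as 1 embryo was left out. Genes without overlap, 5097, became 7605 to 8499 as 1 embryo was left out, and 3506 to 6987 under the other alternatives. List medians for processing and for receptor coupling moved to -0.022 and 0.026 with an FPKM of at least 5, and to 0.127 and -0.0032 after rescaling. They ran from -0.010 to 0.071 and -0.13 to 0.0075 as 1 embryo was left out, and the arch list from 0.17 to 0.38. The causes were not tested.

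No paired analysis was made, because the labels give no pairs of mutant and control embryos and the controls differ in genotype. Depth in reads is unknown, so how far low signal limits *Edn1*, *Edn2* and *Ednrb* cannot be given as an interval.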
